A study of Homo sapiens with 4 samples.

Results

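The aldehyde dehydrogenases described here are 9 genes, ALDH1A1, ALDH1A2, ALDH1A3, ALDH1B1, ALDH2, ALDH3A1, ALDH3A2, ALDH3B1 and ALDH3B2. They were chosen by name, as every probe of the array whose gene name is one of the 9. This gave 15 probes of the 58183 on the array, for 9 of its 43305 gene names. HN4 and HN30 are human cell lines of head and neck squamous cell carcinoma (HNSCC). HN4/DDP and HN30/DDP, labelled HN4_CR and HN30_CR, are the cisplatin-resistant cells that the study derived from them by raising the dose of the drug in steps. Per the labels, the resistant cells were held in medium with 20 μM cisplatin for 48 hours, and no such treatment is given for the parental cells. Total RNA of each of the 4 conditions was hybridised to 1 one-colour Agilent array, so each difference between a resistant and a parental line compares a single array with another single array and has no replicate check. Each line has a single resistant derivative, and the labels and methods do not say whether it is a clone. A lasting difference between the cells and a direct response to the drug in the medium cannot be told apart, and an array of whole RNA cannot tell fewer expressing cells from less RNA per cell.

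Aldehyde dehydrogenases oxidise aldehydes to carboxylic acids with NAD+ or NADP+ as the electron acceptor. ALDH1A1, ALDH1A2 and ALDH1A3 turn retinaldehyde into retinoic acid, the ligand of the retinoic acid receptors, and high ALDH activity is widely used to sort stem-like cells from carcinomas. ALDH1B1 and ALDH2 work in mitochondria, where ALDH2 is the main enzyme that clears acetaldehyde. ALDH3A1 clears aldehydes of lipid peroxidation and is a known target of the aryl hydrocarbon receptor (AhR). ALDH3A2 oxidises long-chain fatty aldehydes, and its loss causes Sjögren-Larsson syndrome. ALDH3B1 and ALDH3B2 act on lipid-derived aldehydes.

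The sequences shown are an ALDH3A1 probe and the regions upstream of the transcription start of 3 members. No difference given below rests on the upstream regions. The probe is shown because its 60 bases lie on the genome over 675 bases (chr17:19643743-19644417, hg19, minus strand), so it reads a spliced transcript across an intron. Hits of the searched motifs are in capitals, and the probe was not searched.
ALDH3A1 probe: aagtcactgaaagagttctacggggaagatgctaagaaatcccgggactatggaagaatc
The upstream regions are those of ALDH1A1 (chr9:72953054-72953303, minus strand), ALDH1A3 (chr15:100879581-100879830, plus strand) and ALDH1B1 (chr9:38392452-38392701, plus strand), each of 250 bases from RefSeq on GRCh38.p14. ALDH1A1 and ALDH1A3 are shown because the differences of these related enzymes had opposite signs in HN30/DDP, and ALDH1B1 because its difference had opposite signs in the lines.
ALDH1A1 upstream: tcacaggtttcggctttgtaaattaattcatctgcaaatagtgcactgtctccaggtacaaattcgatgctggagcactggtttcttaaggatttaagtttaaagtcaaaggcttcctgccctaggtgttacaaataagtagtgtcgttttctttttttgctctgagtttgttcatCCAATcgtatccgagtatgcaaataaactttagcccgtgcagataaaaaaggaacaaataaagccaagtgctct
ALDH1A3 upstream: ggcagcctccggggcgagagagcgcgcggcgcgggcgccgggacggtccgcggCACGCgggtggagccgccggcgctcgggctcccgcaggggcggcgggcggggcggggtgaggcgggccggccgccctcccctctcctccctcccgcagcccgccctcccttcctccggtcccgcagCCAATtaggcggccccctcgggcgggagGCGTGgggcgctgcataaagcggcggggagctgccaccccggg
ALDH1B1 upstream: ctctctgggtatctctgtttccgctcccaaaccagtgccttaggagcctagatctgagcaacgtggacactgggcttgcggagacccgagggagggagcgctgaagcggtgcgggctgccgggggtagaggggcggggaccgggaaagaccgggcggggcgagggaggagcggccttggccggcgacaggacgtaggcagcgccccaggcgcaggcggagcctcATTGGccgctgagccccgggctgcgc
RefSeq upstream regions were matched for 6 of the 9 members, with 9 transcription starts in all. ALDH2, ALDH3A1 and ALDH3B2 had no match. Both strands were searched for 6 motifs. GCGTG, the core of the AhR element, was in 3 of the 9 regions and in 32.2% of 35116 upstream regions of the same length. CCAAT was in 5 of the 9 and in 32.0% of all. TGACG (the core of the cyclic AMP response element, 21.2% of all), AGGTCA (part of a nuclear receptor element, 12.1%), TGACNNNGC (the core of the antioxidant response element, 10.9%) and TATAAA (10.72%) were in 0 of the 9. No motif overlapped another in the regions shown. In ALDH1A3 the GCGTG hits began 197 and 43 bases before the start, the first on the minus strand, and CCAAT began 71 bases before it. In ALDH1A1 CCAAT began 74 bases before the start, and in ALDH1B1 26 bases before it on the minus strand. The ALDH1A1 region had a GC content of 38.4%, against 82.4% in ALDH1A3, 70.4% in ALDH1B1 and a median of 58.0% over all regions. These hits describe the letters in the window and no more.

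ALDH3A1 was higher in both resistant lines than in their parental lines. Its log2 difference was 1.31 in HN4/DDP and 2.35 in HN30/DDP. ALDH2 was 3.95-fold lower in HN4/DDP and 1.36-fold higher in HN30/DDP. ALDH1A3 was lower in both resistant lines, by an amount in HN30/DDP that depended on the processing, and ALDH1A1 was lower in HN4/DDP and higher in HN30/DDP. ALDH3A2 differed by no more than 1.27-fold in either line, and ALDH1A2 was not well above background on any array. The same values seen by array are in the plot of signal by condition.

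**Figure D1:**
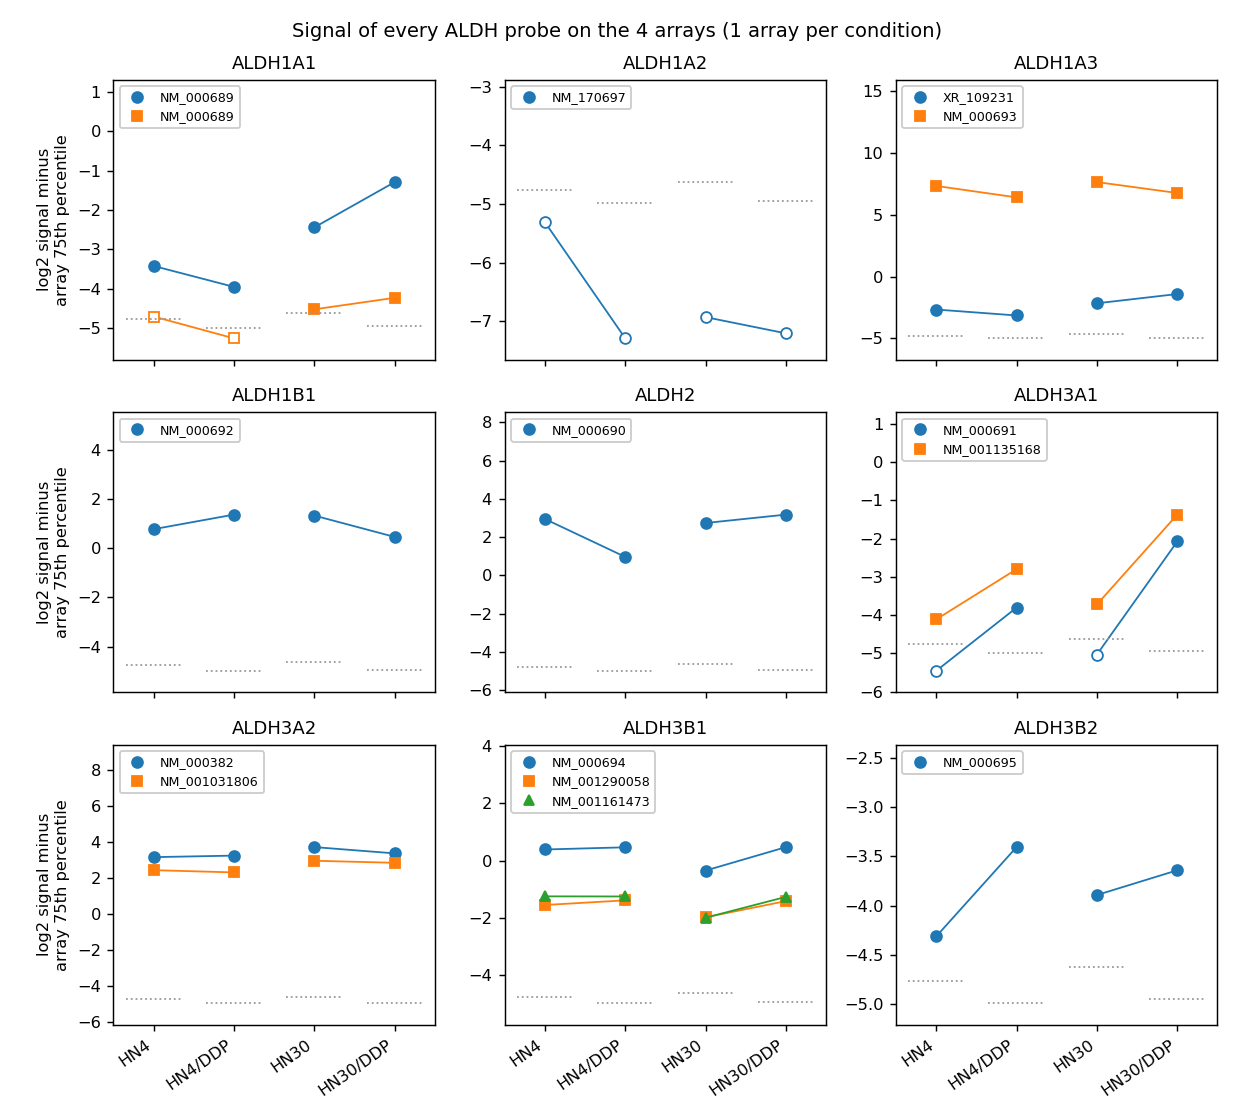
Signal of all 15 ALDH probes on the 4 arrays, as log2 of the processed signal minus the 75th percentile of the array (vertical axis, scale set per gene). Each line joins a parental array to its resistant array, colours are probes by transcript identifier, open symbols were not well above background, and dotted lines mark the lowest signal well above background on each array. ALDH3A1 is higher on both resistant arrays in both probes, ALDH2 is lower on HN4/DDP alone, and the only ALDH1A2 probe lies under the dotted line on every array.

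A level below is log2 of the processed signal minus the 75th percentile of the array, and a difference is the resistant level minus the parental level. The scanner SD is the error that the scanner software gives for the signals of the arrays compared, and it holds no variation between cultures. A member was called when its difference passed 2 in size and its probe was well above background on the brighter array. By that rule 1 of 8 tested members, ALDH3A1, was called higher in HN30/DDP, where 8.37% of 28330 genes were, and 0 were called lower, where 2.75% of all genes were. The ALDH3A1 call was lost with normexp, with the array median as the scale, with a pseudocount of 16 and in the authors' table. In HN4/DDP 0 of 8 were called higher (3.61% of 26853 genes) and 0 lower (2.20% of them), with ALDH2 just outside the threshold at -1.98. At a threshold of 1, ALDH3A1 was called higher in HN4/DDP (9.31% of genes) and ALDH2 lower (8.65%). ALDH3A1 stood under 1 there with normexp, at 0.48, and with a pseudocount of 16, at 0.96. At that threshold ALDH1A1 and ALDH3A1 were called higher in HN30/DDP (19.8% of genes) and 0 members lower (13.3%). ALDH1A1 stood under 1 there with normexp, quantile normalization, the array median, the authors' table and the mean of its probes, at 0.72 to 0.84. ALDH1A3 and ALDH1B1 passed -1 with the array median, at -1.30 and -1.29. A single call among 8 members is near the background share in HN30/DDP. The median difference of the 8 members was 0.080 in HN4/DDP, with 5 above 0 and 3 below, against -0.08 over all genes tested there. In HN30/DDP it was 0.35, again with 5 above 0 and 3 below, against 0.057 over all genes.

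The replicated contrast sets the resistant arrays against the parental ones over both lines. Its limma fit held 29521 genes, took the line as a block and left 1 residual degree of freedom per gene. It called 0 genes (0%) after Benjamini-Hochberg adjustment, with a smallest adjusted p of 0.382, and 2537 genes had an unadjusted p under 0.05. For ALDH3A1 the difference over both lines was 1.83 with a standard error of 0.43 (limma, adjusted p = 0.485). That difference was 0.87 with normexp and 2.07 with the mean of its probes. For ALDH1A3 the difference over both lines was -0.90 with a standard error of 0.23 (limma, adjusted p = 0.499). It was -0.64 with quantile normalization and -0.39 with the mean of the probes of that name. The other 6 tested members had adjusted limma p-values from 0.771 to 0.960. No member therefore passed a test, and what follows gives levels and differences of the arrays.

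Of the enzymes that make retinoic acid, ALDH1A3 was measured far above background by the probe for its messenger RNA (chr15:101456503-101456562, hg19, plus strand). Its level was 7.35 in HN4 and 6.42 in HN4/DDP, against 7.66 in HN30 and 6.78 in HN30/DDP. No spot on the arrays was saturated. Both resistant arrays lay below both parental arrays. The difference was -0.93 (scanner SD 0.20) in HN4/DDP, a 1.90-fold lower signal, and -0.88 (scanner SD 0.20) in HN30/DDP, 1.84-fold lower. Over the settings that kept this probe alone it ran from -0.93 to -0.78 in HN4/DDP and from -1.30 to -0.48 in HN30/DDP. Averaged with the other probe of that name, described next, the values were -0.70 and -0.07. Bright genes as a class were lower on the HN30/DDP array: over the 1470 genes with a mean level above 5, which include ALDH1A3, the median difference was -0.37 there and -0.10 in HN4/DDP. The part of that shift in the ALDH1A3 value was not tested. Of all genes tested, 9.79% differed by at least as much downward in HN4/DDP and 15.6% in HN30/DDP.

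The array has another probe named ALDH1A3, for the non-coding transcript XR_109231 (chr15:101401818-101401877, hg19). It lies 54626 bases from the first probe, farther than the 36796 bases of the gene in RefSeq on GRCh38.p14, and its accession was not matched there. Its level was -2.66 in HN4 and -3.14 in HN4/DDP, against -2.15 in HN30 and -1.40 in HN30/DDP, well above background on all 4. Its difference was -0.48 (scanner SD 0.23) in HN4/DDP and 0.75 (scanner SD 0.21) in HN30/DDP, so the probes disagreed in sign in HN30/DDP. The values of the messenger RNA probe are those given as ALDH1A3 elsewhere.

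ALDH1A1, the enzyme most often named with ALDH activity in stem-like cells, was dimmer. Its brighter probe (chr9:75516136-75516195, hg19, minus strand) read -3.42 in HN4 and -3.96 in HN4/DDP, against -2.44 in HN30 and -1.29 in HN30/DDP. The HN30 pair lay above the HN4 pair. In HN30/DDP the signal was 2.22-fold higher than in HN30, a difference of 1.15 (scanner SD 0.22), and in HN4/DDP the difference was -0.53 (scanner SD 0.28). Of all genes tested, 17.3% were at least as much higher in HN30/DDP. The other probe (chr9:75540401-75540460) read -4.71, -5.26, -4.53 and -4.23 in the same order and was not well above background on the HN4 and HN4/DDP arrays. Its difference in HN30/DDP was 0.29 (scanner SD 0.39), smaller than its error.

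ALDH1A2 had a single probe (chr15:58246532-58246591, hg19, minus strand), which was not well above background on any array. Its level was -5.31 in HN4 and -7.30 in HN4/DDP, against -6.93 in HN30 and -7.21 in HN30/DDP. These signals set no order between the conditions, and no fold is given.

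The mitochondrial enzymes each had 1 probe, well above background on all 4 arrays. ALDH2 (chr12:112247448-112247507, hg19, plus strand) read 2.95 in HN4 and 0.97 in HN4/DDP, against 2.74 in HN30 and 3.18 in HN30/DDP. The HN4/DDP array stood below the other three, which lay within 0.44 of each other. The processed signal was 3816 in HN4 and 969 in HN4/DDP, a difference of -1.98 (scanner SD 0.20) on the log2 scale, and 2.23% of all genes tested were at least as much lower there. From 2968 in HN30 to 4342 in HN30/DDP the difference was 0.44 (scanner SD 0.20). Over the 4726 genes with a mean level above 2 and up to 5, ALDH2 and ALDH3A2 included, the median difference was -0.45 in HN30/DDP. In HN4/DDP the median of such genes was -0.09. The part of that shift in the ALDH2 and ALDH3A2 values was not tested.

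ALDH1B1 (chr9:38397700-38397759, hg19, plus strand) read 0.78 in HN4 and 1.37 in HN4/DDP, against 1.33 in HN30 and 0.46 in HN30/DDP. The HN4/DDP and HN30 arrays were close to each other and above the other pair. Its difference was 0.59 (scanner SD 0.20) in HN4/DDP and -0.87 (scanner SD 0.20) in HN30/DDP, 1.51-fold higher in the one and 1.83-fold lower in the other. In each line the sign of the ALDH1B1 difference was opposite to that of ALDH2.

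**Figure D2:**
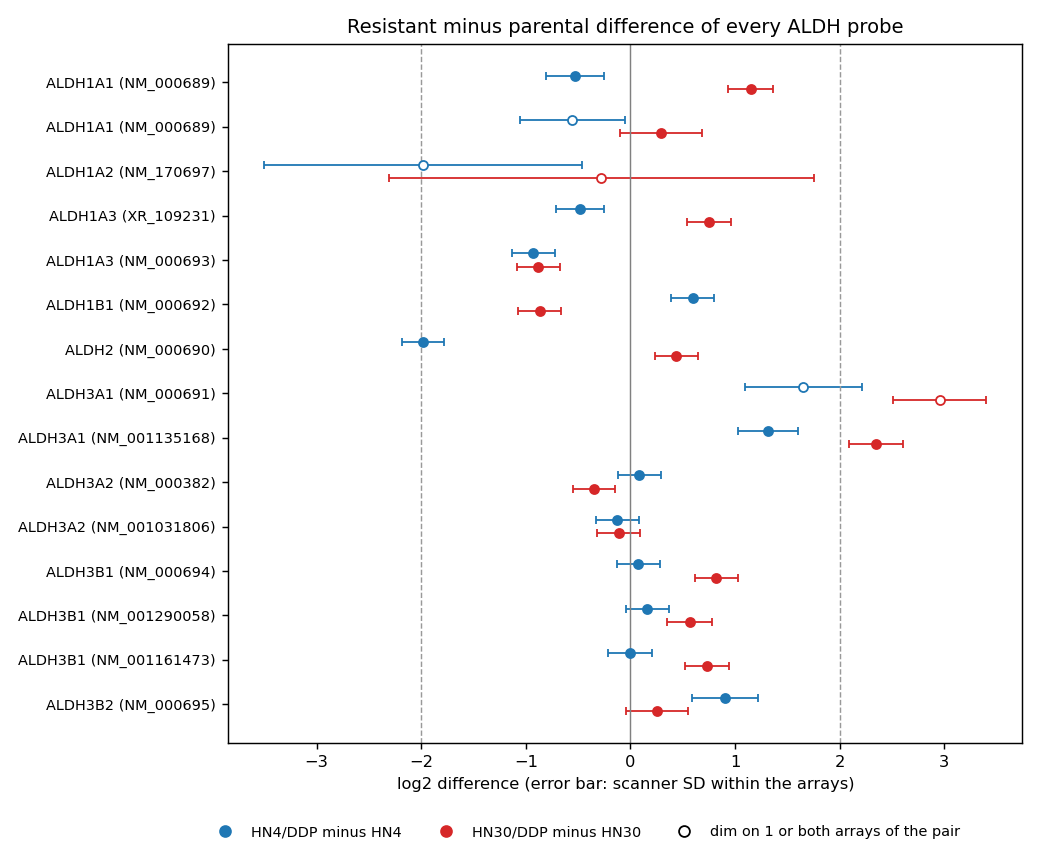
Resistant minus parental log2 difference of each of the 15 ALDH probes in HN4/DDP (blue) and HN30/DDP (red), with 1 array per condition. Error bars are the scanner SD of the signals on the arrays compared, dashed lines mark -2 and 2, and open symbols were dim on at least 1 array of the pair. Both ALDH3A1 probes lie to the right of 0 in both lines, the ALDH2 difference reaches -1.98 in HN4/DDP, and the ALDH1A3 probes differ in sign in HN30/DDP.

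ALDH3A1 had a pair of probes, listed under different transcript identifiers. The brighter one (chr17:19641655-19641714, hg19, minus strand) read -4.11 in HN4 and -2.80 in HN4/DDP, against -3.72 in HN30 and -1.37 in HN30/DDP. Both resistant arrays lay above both parental arrays, and all 4 signals were well above background though low, from 28.5 to 185 units of processed signal. The difference was 1.31 (scanner SD 0.29) in HN4/DDP, 2.49-fold higher, and 2.35 (scanner SD 0.26) in HN30/DDP, 5.10-fold higher. Of all genes tested, 6.50% were at least as much higher in HN4/DDP and 5.86% in HN30/DDP. The value depends on the processing: with the normexp background correction the differences were 0.48 and 1.26, and with a pseudocount of 16 they were 0.96 and 1.91.

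The intron-crossing ALDH3A1 probe, whose sequence is printed above, read -5.46 in HN4 and -3.80 in HN4/DDP, against -5.03 in HN30 and -2.07 in HN30/DDP. On both parental arrays it was dim, that is, not well above background. Its signal was therefore at least 1.94-fold higher in HN4/DDP and at least 5.87-fold higher in HN30/DDP, the same direction as the brighter probe. For genes of low signal, in the range of the brighter ALDH3A1 probe, the median difference was close to 0: over the 8072 genes with a mean level of -2 or less that were well above background on both HN30 arrays, ALDH3A1 included, the median difference was 0.13. Over the 8301 such genes of the HN4 pair it was -0.13.

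Among 22148 other genes well above background on the same arrays, those closest to ALDH3A1 over the 4 arrays were AQP7P3 with a root mean square distance of 0.062 (log2, each gene centred on its own mean), RTN2 with 0.085 and XLOC_l2_009159 with 0.090. A distance within 0.25 was found for 52 genes.

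ALDH3A2, the fatty aldehyde dehydrogenase, was measured by 1 probe for each of its 2 listed transcripts. The brighter one (chr17:19575195-19575254, hg19, plus strand) read 3.14 in HN4 and 3.23 in HN4/DDP, against 3.70 in HN30 and 3.35 in HN30/DDP. The difference was 0.084 in HN4/DDP and -0.35 in HN30/DDP, each with a scanner SD of 0.20. The other (chr17:19580832-19580891) differed by -0.12 and -0.11. The brighter probe's difference in HN30/DDP was larger than its scanner SD and the others were smaller. It ran from -0.77 with the array median to 0.089 in the authors' table. The value of -0.35 was smaller in size than the median of -0.45 in HN30/DDP over the genes in its range of level.

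ALDH3B1 had 3 probes, all well above background on all 4 arrays. The brightest one (chr11:67795665-67795724, hg19, plus strand) read 0.39 in HN4 and 0.46 in HN4/DDP, against -0.35 in HN30 and 0.47 in HN30/DDP. HN30 was the low array, and HN30/DDP stood at the level of the HN4 pair. The difference in HN30/DDP was 0.82 (scanner SD 0.20) on this probe and 0.56 and 0.73 on the others (chr11:67786661-67786720 and chr11:67793516-67793575). With the array median as the scale the brightest probe differed by 0.40 there. In HN4/DDP the 3 differences were 0.076, 0.16 and -0.0041.

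ALDH3B2 (chr11:67430510-67430569, hg19, minus strand) was dim but well above background, at -4.31 in HN4 and -3.41 in HN4/DDP, against -3.89 in HN30 and -3.64 in HN30/DDP. Its difference was 0.91 (scanner SD 0.32) in HN4/DDP and 0.25 (scanner SD 0.30) in HN30/DDP. In HN4/DDP it was 0.31 with normexp, within its error, and 0.61 with a pseudocount of 16. The value in HN30/DDP lay within its error and was below 0 under 3 of the other settings.

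Between the parental lines, 0 of 8 tested members passed a difference of 2 in HN30 minus HN4 (0.904% of 25890 genes were higher, 1.90% lower), and 0 passed 1 (3.32% higher, 7.08% lower). ALDH1A1 came closest, 0.98 (scanner SD 0.25) higher in HN30, and 3.46% of all genes were at least as much higher. It passed 1 with quantile normalization, the array median and the authors' table, at 1.08 to 1.11, and was 0.51 with normexp, 0.58 with the mean of its probes and 0.80 with a pseudocount of 16. ALDH3B1 was lower in HN30, with a difference of -0.74 (scanner SD 0.20), ALDH1B1 was 0.55 higher and ALDH3A2 0.56 higher. For ALDH3A1 and ALDH2 the parental differences were 0.39 (scanner SD 0.32) and -0.21 (scanner SD 0.20). The parental arrays are also those of the resistant comparisons, so these values are not independent of the ones above.

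**Figure D3:**
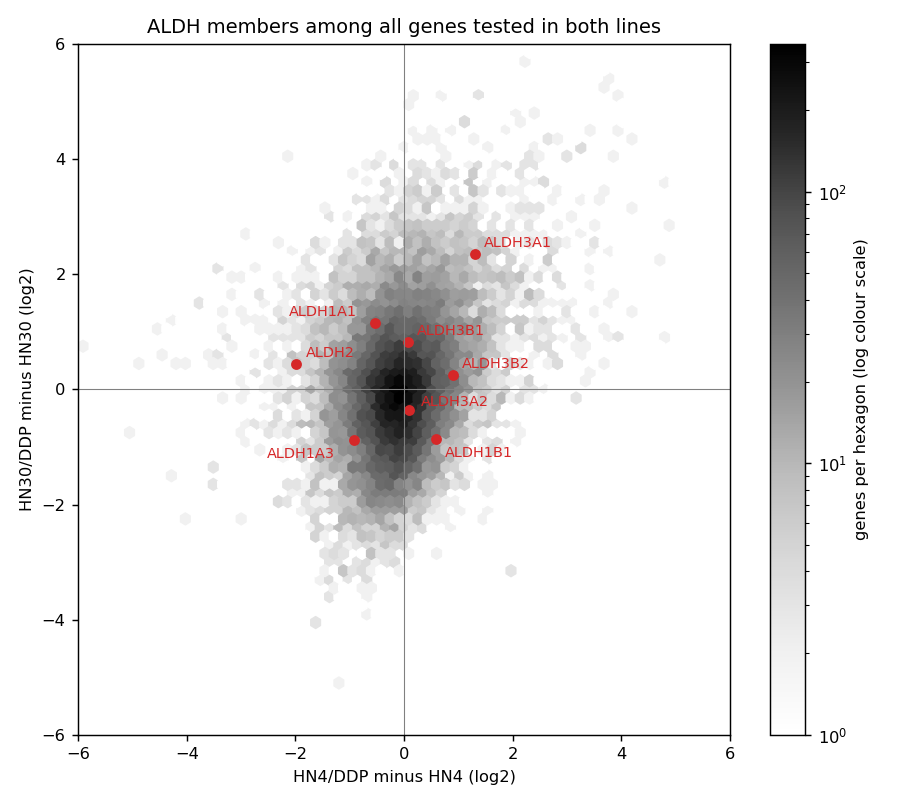
Resistant minus parental log2 difference in HN4/DDP (horizontal) and HN30/DDP (vertical) for the 25662 genes tested in both lines, drawn as hexagons shaded by the number of genes on a log colour scale, with the 8 tested ALDH members in red. The axes run from -6 to 6 and 55 genes lie outside. ALDH3A1 lies at 1.31 and 2.35, ALDH2 at -1.98 and 0.44, and ALDH1A3 at -0.93 and -0.88.

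The members lay in different parts of the plot of both lines. ALDH3A1 had differences above 0 in both lines, ALDH3B1 was above 0 in HN30/DDP and within its scanner SD in HN4/DDP, ALDH1A3 was below 0 in both, and ALDH1A1, ALDH1B1 and ALDH2 had opposite signs. ALDH3B2 was above 0 in both lines and ALDH3A2 had opposite signs, but the sign of each in HN30/DDP turned under quantile normalization. Over the settings, the values of the tested members ran over a wider range in HN30/DDP than in HN4/DDP, with the exception of ALDH3B2, as the plot of settings shows. The ALDH2 difference in HN4/DDP ran from -1.98 to -1.92 over the settings, while in HN30/DDP it ran from 0.020 with the array median as the scale to 0.83 with quantile normalization. For ALDH1A3 in HN30/DDP the ends of the range were the array median and the mean of its probes. On the HN30/DDP array 63.6% of spots were well above background, against 55.3% on the HN30 array, and the part of this gap in the spread of values was not tested.

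**Figure D4:**
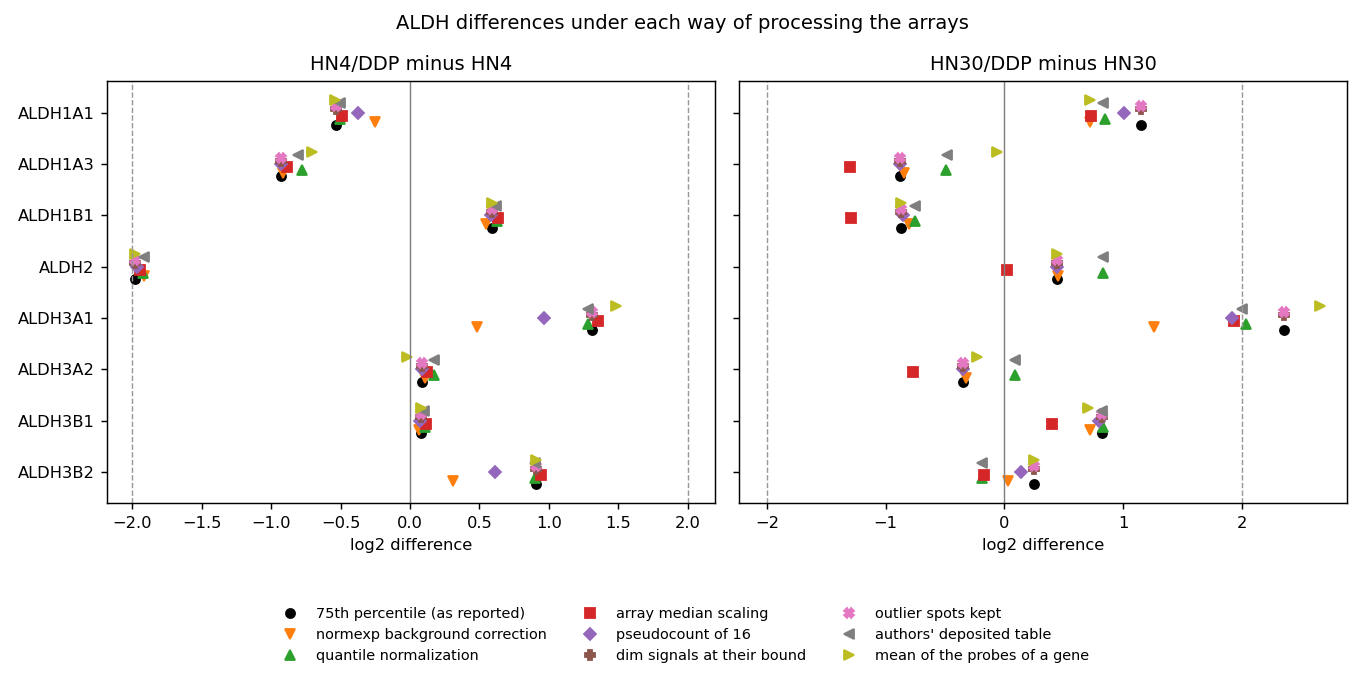
Log2 difference of the 8 tested ALDH members (rows) in HN4/DDP and HN30/DDP under the setting reported and 8 other ways of processing the arrays. Symbols stand for settings and dashed lines mark -2 and 2. In HN4/DDP the ALDH2 values stay between -1.98 and -1.92, and in HN30/DDP the ALDH3A1 values run from 1.26 to 2.65.

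Of the 10 other ALDH family genes on the list, 1 was called higher and 0 lower in each line, and it was ALDH1L1 in both. Over all genes tested, 3.61% were called higher and 2.20% lower in HN4/DDP, and 8.37% and 2.75% in HN30/DDP. The counts of each list below stand beside these same shares. ALDH1L1, the cytosolic 10-formyltetrahydrofolate dehydrogenase of folate metabolism, was not well above background in either parental line. Its signal was at least 3.54-fold higher in HN4/DDP and at least 2.52-fold higher in HN30/DDP. Both bounds are under 4-fold, the size of a log2 difference of 2, so the call rests on the dim parental signals as measured. The other 9 family genes differed by -1.12 to 1.02 on the probe used for each, with ALDH9A1 and ALDH6A1 at the ends, both in HN30/DDP. A dimmer probe of ALDH4A1, under another transcript identifier, was at least 12.5-fold lower in HN30/DDP, where it was not well above background, while the probe used differed by -0.45. The median of the list was 0.21 in HN4/DDP and -0.27 in HN30/DDP.

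Genes upstream of the ALDH1A enzymes handle retinol and retinaldehyde, and not all of those on the list supply retinaldehyde. Of the retinoid supply genes 1 of 11 tested was called higher and 0 lower in each line. In HN4/DDP it was DHRS9, a retinol dehydrogenase, at least 106-fold higher than in HN4, where it was not well above background. DHRS9 was not well above background in HN30 or HN30/DDP. In HN30/DDP it was RDH12, another retinol dehydrogenase, at least 1.33-fold higher, a bound under 4-fold, so this call too rests on a dim parental signal as measured. The medians of the list were 0.16 and 0.61.

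Downstream, retinoic acid is carried by CRABP2 and FABP5 and broken down by CYP26A1. Of this list 1 of 13 tested genes was called higher and 1 lower in HN4/DDP, and 1 of 14 was called higher and 2 lower in HN30/DDP. CRABP2 differed by 4.75 in HN4/DDP and 2.22 in HN30/DDP, while a dimmer probe for another of its transcripts differed by 0.084 and 0.058. CYP26A1 differed by -2.33 in HN4/DDP and 1.65 in HN30/DDP. FABP5 differed by 0.49 in HN4/DDP and -2.84 in HN30/DDP, alike on 3 probes. TGM2, a transglutaminase that retinoic acid induces in many cells, differed by 0.65 and -4.42, whereas its other probe read 0.057 and 0.50. The medians of the list were 0.22 and 0.35. Of these 4 genes, CRABP2 alone had the same sign in both lines on the probe used, and that sign was opposite to the sign of ALDH1A3.

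Of the AhR and its targets, the list that goes with ALDH3A1, 0 of 8 were higher (3.61% of all genes) and 2 lower (2.20%) in HN4/DDP. In HN30/DDP 1 was higher (8.37% of all genes) and 0 lower (2.75%). CYP1A1 differed by -2.03 in HN4/DDP, where ALDH3A1 was higher, and by 2.53 in HN30/DDP, where ALDH3A1 was higher too. CYP1B1 differed by -4.83 in HN4/DDP and -0.12 in HN30/DDP. AHR itself differed by -1.02 and -0.10. The medians of the list were -0.77 and 0.094.

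Alcohol dehydrogenases make aldehydes such as acetaldehyde, which ALDH2 clears, and 5 of the 8 on the list were not well above background on any array. Of the 3 tested in each line 0 were called in HN4/DDP and 1 in HN30/DDP, ADHFE1, a mitochondrial hydroxyacid-oxoacid transhydrogenase, with differences of -0.53 and 3.02. Its other probe, dim on 3 of the 4 arrays, differed by 1.68 in HN30/DDP as measured. Of 9 other enzymes that convert aldehydes, AOX1, an aldehyde oxidase, was the only one called. The list does not hold the AKR1B and AKR1C aldo-keto reductases. Of these AKR1B10 differed by 5.58 and 5.76 (HN4/DDP, HN30/DDP) and AKR1C3 by 6.13 and 3.63, as measured, with AKR1B10 dim on the HN30 array. That family was not uniform: AKR1C1 differed by 6.96 and 1.87, and AKR1B1 by -1.58 and 0.14. AOX1 differed by 2.21 in HN4/DDP, 1.53 on its other probe, and in HN30/DDP, where it was not well above background, it was at least 5.41-fold lower. The other 8 differed by -1.34 to 1.20 over both lines.

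Of 8 stem cell markers used beside ALDH activity, 4 were not well above background on any array, PROM1, SOX2, NANOG and LGR5, and 0 of the other 4 were called in either line. CD44, a surface marker of stem-like HNSCC cells, differed by -1.07 in HN4/DDP and -1.71 in HN30/DDP. Its level was 4.92 to 6.63, and genes with a mean level above 5 had medians of -0.10 and -0.37. BMI1 differed by -0.95 and -0.64, MYC by -0.10 and -0.67, and KLF4 by 0.65 and 1.40. CD44, BMI1 and MYC had 2 probes each, and these values are those of the brighter one. ALDH1A1 differed by -0.53 and 1.15 in the same comparisons.

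**Figure D5:**
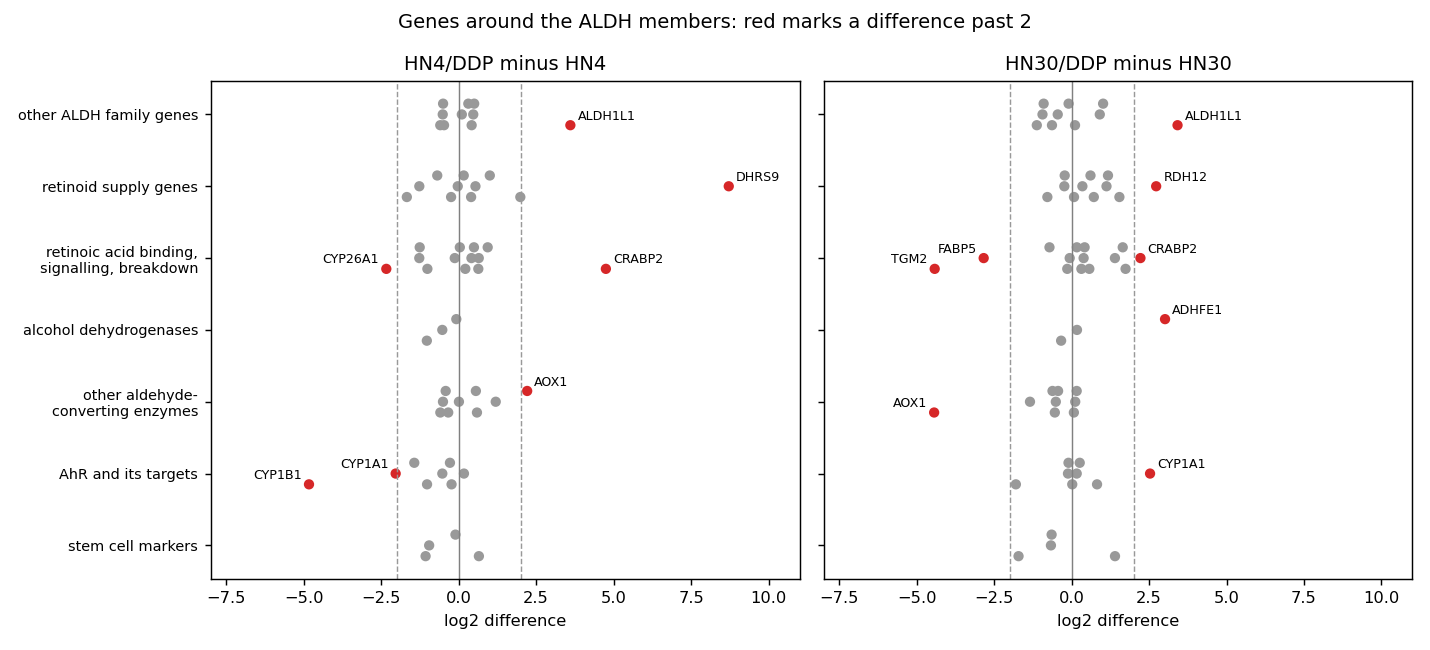
Resistant minus parental log2 difference of the genes around the ALDH members in HN4/DDP and HN30/DDP, 1 row per list, with points staggered vertically for legibility. Genes that were dim on both arrays are left out, dashed lines mark -2 and 2, and genes past them that were well above background on the brighter array are red and named. ALDH1L1 and CRABP2 lie past 2 in both lines as measured, though the bounds of ALDH1L1 do not, and CYP1A1 is at -2.03 in HN4/DDP and 2.53 in HN30/DDP. Differences of genes dim on 1 array are drawn as measured and depend on that dim signal.

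The arrays share 1 slide and 1 scan day. The genes well above background numbered 23950 to 27625 per array, and the 75th percentile of the processed signal was 444 to 496. Of 10 squamous epithelial markers all were well above background in HN4, HN4/DDP and HN30 and 9 in HN30/DDP, where KRT6A was not, and their summed signal ran from 81983 in HN30/DDP to 141362 in HN4/DDP. In HN4/DDP 3 of them were called higher (KRT6A 3.32, KRT17 3.29 and KRT14 2.33) and 1 lower (KRT5 -4.05), and in HN30/DDP KRT6A was the only one called, at least 183-fold lower. Of 6 fibroblast markers COL1A2, COL3A1, DCN and LUM were not well above background on any array, and the summed signal was 99.1 to 510. COL1A1, well above background on all 4 arrays, differed by 1.73 in HN4/DDP and 2.43 in HN30/DDP. Of 4 leukocyte markers 2 were well above background in HN4, HN4/DDP and HN30 and 3 in HN30/DDP. Their summed signal was 19016 in HN30/DDP against 1627 to 4608 on the others, nearly all of it from CD14, whose level was 5.30 in HN30/DDP and 1.82 to 3.19 on the others. Of 4 endothelial markers 2 or 3 were well above background per array, with a summed signal of 99.4 to 157. In HN4/DDP VWF was called higher, at least 5.37-fold, and PECAM1 lower, at least 2.05-fold, each from a pair with 1 dim array. Of all genes tested, 3.61% were called higher and 2.20% lower in HN4/DDP, and 8.37% and 2.75% in HN30/DDP. The part of the markers in the ALDH values was not tested.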

How the data were processed

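RNA levels were read on 1 array per condition, 4 in all. The authors deposited the scanner output, with the processed intensity of every spot after background subtraction by Agilent Feature Extraction 10.7.1.1 and probe positions on hg19, and a table of log2 values with a median of 4.65 on every array and identical sorted values. Its normalization is not given in the sources used. It was used as an alternative, and its differences correlated with those computed here at r = 0.996 in HN4 and 0.958 in HN30, across 58183 probes, which are not independent replicates.

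Each processed intensity was put on the log2 scale and the array's 75th percentile over its 60901 non-control spots was subtracted. Outlier spots were dropped, the remaining spots were averaged per probe, and a gene was read from its brightest probe by mean over the 4 arrays. A gene was tested in a comparison when it was well above background on at least 1 of the arrays. For a dim signal, a fold is a bound ("at least"), set by the higher of that signal and the lowest one well above background on the array, from -4.99 to -4.63 on the log2 scale.

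With 1 array per condition a line's difference has no test. The contrast over both lines used limma 3.58.1 in R 4.3.3 with a trended eBayes step on all genes and was tested on simulated data. Labels do not say that the samples are separate cultures. With the line as a block, each p-value rests on the difference between the changes of the lines, moderated over the genes fitted. No replicate of a condition enters it. Other steps used Python 3.11.15, numpy 2.4.6, pandas 2.3.3 and matplotlib 3.10.9. The members, lists and thresholds were chosen with earlier results of these data known. The genes named beside the members were those past 2 in either line and well above background on the brighter array, at most 4 per list. Other genes, such as markers, AKR1B1, AKR1B10, AKR1C1, AKR1C3 and the ends of ranges, were named after their values were seen. RefSeq accessions matched 13 of the 15 member probes, all to the member's symbol. Exon and UTR annotation of the probes was not analysed here. Alternatives were normexp (offset 50), quantile or array median scaling, a pseudocount of 16, dim signals at their bound, outliers kept, the authors' table, the mean of probes, a stricter filter and a threshold of 1. CD68 and LYZ, leukocyte markers on the list, were not analysed here.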

Additional observations from a re-analysis of the deposited data

Results flagged for a closer look

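Differences of opposite sign in the lines, each larger than its scanner SD, were found for 3 members, and these contrasts between lines were not tested, because 1 array per condition leaves no spread to test them with. The ALDH2 difference in HN30/DDP minus that in HN4/DDP was 2.42 on the log2 scale (scanner SD 0.29). For ALDH1B1 it was -1.46 (scanner SD 0.29). For ALDH1A1 it was 1.68 (scanner SD 0.35), on its brighter probe. Its other probe was not well above background in HN4 or HN4/DDP and gives no such value. The HN4/DDP difference of ALDH1A1 came within its scanner SD with normexp, at -0.25, and the HN30/DDP difference of ALDH2 with the array median as the scale, at 0.020.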

How the results depend on the processing

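At a threshold of 1, the count of members called in HN4/DDP moved from 0 to 1 higher and from 0 to 1 lower, and the count called higher in HN30/DDP from 1 to 2. That count was 0 with normexp, with the array median as the scale, with a pseudocount of 16 and with the authors' table, where ALDH3A1 stood at 1.26, 1.93, 1.91 and 1.999. The other counts of members did not move under any alternative listed. The array median moved the median of all genes in HN30/DDP from 0.057 to -0.36 and between the parental lines from 0.033 to 0.14, and quantile normalization moved it in HN30/DDP to -0.06.

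Of 72 values per comparison over 8 alternatives, 65 in HN4/DDP, 46 in HN30/DDP and 69 between the parental lines stayed within the scanner SD of the value reported, and 1, 7 and 1 changed sign. The changes of sign were ALDH3A2 in HN4/DDP (-0.020 with the mean of its probes), ALDH3A2 in HN30/DDP (0.088 with quantile normalization, 0.089 in the authors' table), ALDH3B2 in HN30/DDP (-0.19 in both of these, -0.17 with the array median), ALDH1A2 in HN30/DDP (0.023 and 0.022 in the same) and ALDH1A2 between the parental lines (0.14 with dim signals at their bound). Their causes were not tested. ALDH3A1 ran from 0.48 to 1.48 in HN4/DDP and ALDH1A1 from 0.72 to 1.15 in HN30/DDP. The limma contrast called 0 members under every alternative fitted, with 1 or 2 members at an unadjusted p under 0.05. Without the HN4 pair or without the HN30 pair the contrast is a line's own difference with no test: 2.35 and 1.31 for ALDH3A1. Each condition has replicate 1 only, so no pairing by replicate number could be made: the pairs of that contrast are the cell lines, and without this block it called 0 members too. Signals near background limit ALDH1A2, ALDH3A1, ALDH3B2 and ALDH1A1.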
